A study of Mus musculus with 12 samples.

Results

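The genes described here are the Toll-like receptors, the NOD-like receptors (NLR) and the NF-kB pathway of mouse lung. They were taken by symbol from the deposited expression table: names that begin with Tlr, Nlr, Nfkb, Traf, Ripk or Irak and a following number or letter, Nod1 and Nod2, the NF-kB subunits Rel, Rela and Relb, and the genes Myd88, Ticam1, Ticam2, Ikbkb, Ikbke, Ikbkg, Chuk, Pycard, Cd14 and Ly96. The rule found 75 genes of the 20793 entries in the table. It also takes in genes that share only the first letters of a symbol, such as Traf3ip1, a protein of cilia. Expression is given as RPKM, reads scaled to transcript length and to the mapped reads of the library. Of the 75 genes, 58 reached 1 RPKM in at least 3 of the 12 libraries and were tested, and the other 17 were too low.

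Toll-like receptors recognise molecules of microbes and of damaged cells, at the cell surface or in endosomes. Through the adaptors MyD88 and TRIF, the IRAK and RIP kinases and the TRAF proteins they switch on the IKK kinase complex, which marks the inhibitory IkB proteins for breakdown and so frees NF-kB dimers to enter the nucleus. NLR proteins sense similar molecules in the cytosol, and some of them, with the adaptor ASC, form inflammasomes that activate caspase-1 and interleukin-1 beta. In lung these genes are used by resident and recruited leukocytes and by epithelial and endothelial cells.

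The libraries hold whole-lung RNA of C57BL/6J mice, a common inbred strain, and form 4 groups of 3. The groups were mice on a 60% fat diet in more than 95% oxygen, mice on the 60% fat diet in room air, mice on a 10% fat diet in more than 95% oxygen, and mice on the 10% fat diet in room air. Each diet was given for 12 weeks. The series title concerns obesity from diet and lung injury from high oxygen, and the labels give neither the order of diet and exposure clearly nor the length of the exposure. The labels do not tie libraries to animals, so p-values measure the spread between these libraries, which may be technical in part.

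The spacing of low RPKM values gave a rough estimate of depth, between 20.5 and 28.7 M reads for a library. Libraries of one group had Pearson's r between 0.977 and 0.993 across genes. Scgb1a1, the secretoglobin of club cells, took 2.68% to 4.63% of summed RPKM under oxygen, against 17.4% to 24.6% in room air, where summed RPKM also reached 731004. Endothelial markers summed to 924 to 1290 RPKM over all libraries, and of 6 such genes 1 was higher and 4 lower under oxygen on 60% fat and 3 lower on 10% fat. Of 6 alveolar type 2 markers 5 were lower in each diet. Among all tested genes 26.3% were higher and 36.5% lower under oxygen on 60% fat, and 25.3% higher and 34.2% lower on 10% fat. The summed alveolar type 2 markers stood between 10000 and 13000 RPKM in the 60% fat oxygen lungs, against 23100 to 34900 RPKM in the 60% fat room-air lungs. They lay between 12600 and 16200 RPKM in the 10% fat oxygen lungs, against 23000 to 31000 RPKM in the 10% fat room-air lungs. Single libraries stood apart in leukocyte markers: the summed alveolar macrophage markers reached 6280 RPKM in 10% fat room-air replicate 3, against 776 and 1250 RPKM in the other two of that group, and 2630 RPKM in 60% fat room-air replicate 3, against 828 and 811 RPKM in its replicates 1 and 2. Summed neutrophil markers were 3480 RPKM in 60% fat room-air replicate 3, against 1050 and 855 RPKM in replicates 1 and 2, and 2900 RPKM in 10% fat room-air replicate 3, against 932 and 446 RPKM. They were 1810 RPKM in 10% fat oxygen replicate 3, against 138 and 94.4 RPKM in replicates 1 and 2. In 60% fat room-air replicate 2 the summed B cell markers were 67.4 RPKM, against 159 and 122 RPKM in replicates 1 and 3.

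Under oxygen, 38 of the 58 tested genes differed from room air on 60% fat, 16 higher and 22 lower (limma, Benjamini-Hochberg adjusted p under 0.05 over all 13324 tested genes). The share is close to the background: 62.8% of all tested genes were called in this comparison, 26.3% higher and 36.5% lower. On 10% fat, 35 of the 58 differed, 14 higher and 21 lower, where 59.5% of all tested genes were called, 25.3% higher and 34.2% lower. The same shares are the background for the counts of called markers and of other gene lists. Quantile normalization gave 16 higher and 14 lower on 60% fat, without the calls of Nlrp3, Nlrc4, Nlrc5, Nod2, Nfkb2, Nfkbid, Nfkbie and Ripk2, and 15 higher and 15 lower on 10% fat, without those of Nlrp3, Nlrc4, Nfkbid, Traf3ip3, Tlr4 and Tlr9 and with Ticam1 added. Of all 13324 tested genes it called 8259 on 60% fat and 7823 on 10% fat, of which 50.1% and 50.5% were higher. Leaving out 60% fat room-air replicate 3, a library high in neutrophil and alveolar macrophage markers, left 28 of the 38 calls on 60% fat, without those of Nlrp3, Nlrc5, Nfkb2, Nfkbid, Nfkbie, Ripk2, Ripk4, Ticam1 and Tlr8, and with Nlrc4 no longer past the filter on low values. Of the 13276 genes tested in that fit 7680 were called. Of the 58 genes, 34 were called in both diets, 14 higher and 20 lower in each, and none was called in opposite directions. Called on 60% fat alone were Nfkbie, Ripk2, Ripk4 and Ticam1, and on 10% fat alone Tlr4, though Ticam1 was also called higher on 10% fat under quantile normalization and median-ratio scaling. The other 19 were called in neither diet. The median log2 change of the 58 genes was -0.15 on 60% fat and -0.21 on 10% fat, against medians over all tested genes of -0.09 and -0.08. Fold changes are on the scale log2(RPKM + 0.5), which understates the change of genes near or under 1 RPKM. In whole lung, fewer cells of a type and less RNA per cell cannot be told apart.

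**Figure D1:**
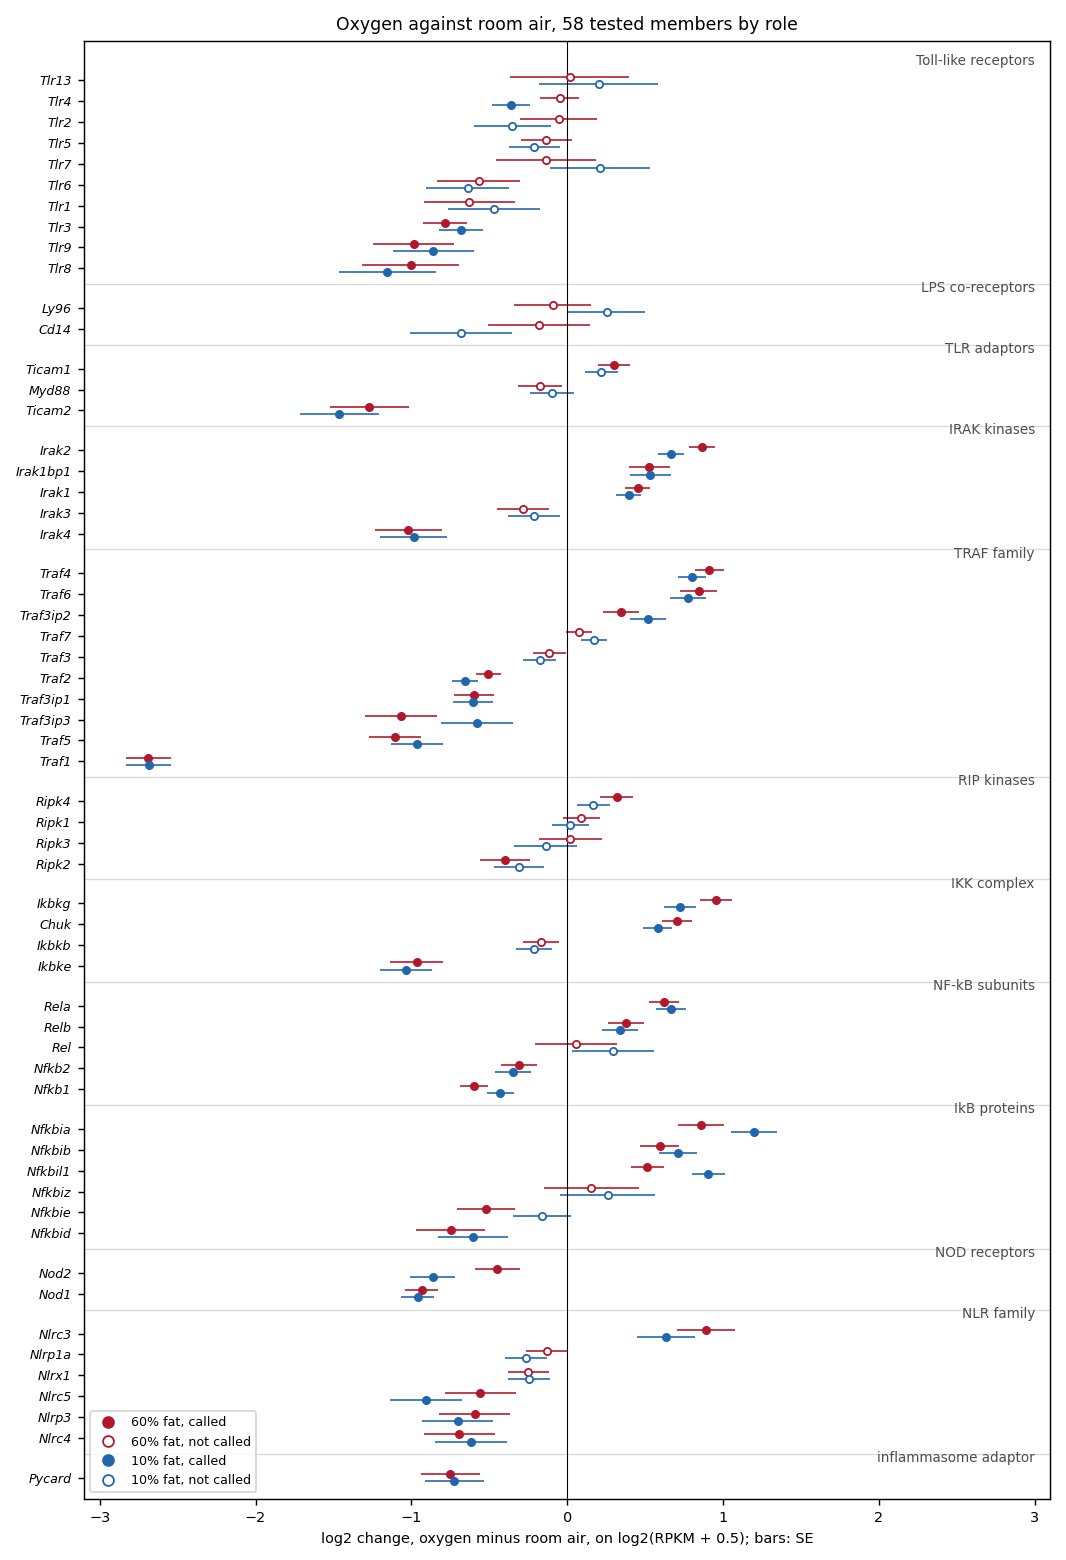
Log2 change of each of the 58 tested genes, oxygen minus room air, on 60% fat (red) and 10% fat (blue), with standard errors, grouped by role. Filled points have an adjusted p under 0.05. No Toll-like receptor is filled on the right, Traf1 lies farthest left at -2.69 in both diets, and Nfkbia on 10% fat lies farthest right at 1.20.

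Promoter sequence is shown for the gene with the highest level of the 58 in every group, Nfkbia, for Nfkb2 and Tlr3, which hold the same motif, and for Traf1, the gene that fell most, as a contrast. The windows run from 250 bases before to 50 bases after the start site of the RefSeq annotation on GRCm38.p6, 5′ to 3′ along the gene, and 60 of the 75 genes had at least one. The motif searched was the kappa B form GGANTTTCC, on both strands, so that its reverse complement GGAAANTCC also counts, and matches are in capitals. Of the 60 genes, 5 held it (8.33%): Nfkbia, Nfkb2, Tlr3, Myd88 and Nlrp3. Of all windows 1.25% held it, and of the 9916 tested genes with a window 1.7%. A match is a description of letters and not a shown binding site.
Nfkbia, chr12:55492598-55492897, minus strand: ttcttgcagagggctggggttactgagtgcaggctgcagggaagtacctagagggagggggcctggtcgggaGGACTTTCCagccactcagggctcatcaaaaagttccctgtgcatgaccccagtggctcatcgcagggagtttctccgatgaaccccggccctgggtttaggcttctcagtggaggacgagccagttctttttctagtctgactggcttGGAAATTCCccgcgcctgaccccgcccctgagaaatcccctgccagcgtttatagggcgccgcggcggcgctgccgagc
Nfkb2, chr19:46305445-46305744, plus strand: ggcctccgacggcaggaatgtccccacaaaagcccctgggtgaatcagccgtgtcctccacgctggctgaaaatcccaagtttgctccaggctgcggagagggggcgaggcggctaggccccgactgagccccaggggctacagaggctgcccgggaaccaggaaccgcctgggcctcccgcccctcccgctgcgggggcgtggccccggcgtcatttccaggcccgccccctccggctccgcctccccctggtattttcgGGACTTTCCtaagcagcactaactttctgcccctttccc
Tlr3, chr8:45410331-45410630, minus strand: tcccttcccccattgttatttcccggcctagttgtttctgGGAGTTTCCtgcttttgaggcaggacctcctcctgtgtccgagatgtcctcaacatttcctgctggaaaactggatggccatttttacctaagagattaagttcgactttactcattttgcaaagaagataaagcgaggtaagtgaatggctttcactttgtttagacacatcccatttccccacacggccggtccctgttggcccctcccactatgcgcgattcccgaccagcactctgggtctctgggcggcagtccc
Traf1, chr2:34961723-34962022, minus strand: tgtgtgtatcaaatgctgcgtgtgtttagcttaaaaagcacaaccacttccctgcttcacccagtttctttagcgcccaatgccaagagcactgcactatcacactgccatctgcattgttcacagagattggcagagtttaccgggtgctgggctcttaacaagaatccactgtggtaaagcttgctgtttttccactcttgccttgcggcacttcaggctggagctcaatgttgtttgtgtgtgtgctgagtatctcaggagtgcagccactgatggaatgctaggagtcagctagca
Nfkbia held the motif at 2 places, beginning 178 and 29 bases before the start site. In Tlr3 it began 210 bases before the start, and in Nfkb2 11 bases after the start shown; a later RefSeq start of that gene has a window that overlaps this one and holds the same letters. The Traf1 window held no match to these letters. The 5 genes with the motif did not move one way under oxygen: Nfkbia was higher, Tlr3, Nfkb2 and Nlrp3 were lower and Myd88 was not called in either diet.

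Among the Toll-like receptors, 10 of the 12 genes were tested, and none was called higher under oxygen. Called lower were 3 on 60% fat and 4 on 10% fat, against 36.5% and 34.2% of all tested genes. The lower ones were receptors that sense nucleic acids in endosomes, Tlr3, Tlr8 and Tlr9, together with the lipopolysaccharide receptor Tlr4 on 10% fat. Tlr7 and Tlr13, which are also endosomal, were not called in either diet. Tlr7 had log2 changes of -0.14 on 60% and 0.21 on 10% fat, and Tlr13 0.02 on 60% and 0.20 on 10% fat. Tlr1 and Tlr6, outside that group, had -0.63 and -0.57 on 60% fat and -0.47 and -0.64 on 10% fat, without a call. The median log2 change of the 10 was -0.35 on 60% fat and -0.42 on 10% fat.

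Tlr8, a sensor of single-stranded RNA, had 2.71, 2.60 and 3.06 RPKM in the 60% fat oxygen lungs, against 6.80, 3.25 and 9.97 RPKM in the 60% fat room-air lungs. On 10% fat Tlr8 had 2.86, 2.23 and 2.37 RPKM in the 10% fat oxygen lungs, against 4.64, 5.31 and 9.22 RPKM in the 10% fat room-air lungs. The groups did not overlap in either diet, but 60% fat room-air replicate 2 lay close to the oxygen lungs. Tlr8 had a log2 change of -1.004 (SE 0.31, adjusted p = 0.0138) on 60% fat and -1.16 (SE 0.31, adjusted p = 0.00674) on 10% fat. The call on 60% fat was lost without 60% fat room-air replicate 3 (adjusted p = 0.0638), where the log2 change was -0.67, and the value without 60% fat room-air replicate 2 was -1.41.

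Tlr9, a sensor of unmethylated CpG DNA, had 0.903, 0.978 and 0.900 RPKM in the 60% fat oxygen lungs, against 2.95, 1.15 and 3.46 RPKM in the 60% fat room-air lungs. For the 10% fat diet Tlr9 had 0.661, 0.701 and 0.604 RPKM in the 10% fat oxygen lungs, against 1.81, 1.24 and 1.79 RPKM in the 10% fat room-air lungs. All 6 oxygen lungs lay under 1 RPKM and under every room-air library, so Tlr9 passed the filter on low values through room air alone. Tlr9 had a log2 change of -0.99 (SE 0.26, adjusted p = 0.00524) on 60% fat and -0.86 (SE 0.26, adjusted p = 0.0122) on 10% fat. Quantile normalization took the call on 10% fat to an adjusted p of 0.0547. Tlr3, the sensor of double-stranded RNA, averaged 5.36 ± 0.473 RPKM in the 60% fat oxygen lungs and 9.71 ± 1.86 RPKM in the 60% fat room-air lungs (SD, n = 3 each), with log2 changes of -0.79 on 60% and -0.68 on 10% fat.

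Tlr4, which binds lipopolysaccharide together with MD-2, had 8.15, 9.05 and 7.76 RPKM in the 60% fat oxygen lungs, against 9.18, 7.37 and 9.42 RPKM in the 60% fat room-air lungs. On the 10% fat diet Tlr4 had 8.89, 8.42 and 6.99 RPKM in the 10% fat oxygen lungs, against 9.83, 9.74 and 12.1 RPKM in the 10% fat room-air lungs. The groups overlapped on 60% fat and did not overlap on 10% fat. The log2 change of Tlr4 was -0.05 (SE 0.12, adjusted p = 0.751) on 60% fat and -0.36 (SE 0.12, adjusted p = 0.025) on 10% fat. The call on 10% fat was lost without 10% fat oxygen replicate 3 or 10% fat room-air replicate 3 (adjusted p from 0.108 to 0.109), and the difference between the diets in the oxygen effect did not pass the threshold, with an interaction of 0.31 (SE 0.18, adjusted p = 0.577).

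Tlr2, a receptor for bacterial lipoproteins, had 9.85, 12.7 and 18.9 RPKM in the 60% fat oxygen lungs, against 11.8, 13.3 and 16.9 RPKM in the 60% fat room-air lungs. On 10% fat Tlr2 had 11.2, 13.8 and 15.8 RPKM in the 10% fat oxygen lungs, against 13.2, 16.1 and 24.3 RPKM in the 10% fat room-air lungs. Groups overlapped in both diets, and replicate 3 was the highest library of each group. Tlr2 had a log2 change of -0.05 (SE 0.25, adjusted p = 0.862) on 60% fat and -0.35 (SE 0.25, adjusted p = 0.239) on 10% fat. Its partners Tlr1 and Tlr6, both with group means under 3 RPKM, were not called, at -0.63 on 60% and -0.47 on 10% fat and at -0.57 on 60% and -0.64 on 10% fat. Tlr1 on 60% fat was called lower when 60% fat room-air replicate 2 (adjusted p = 0.00486) was left out, and Tlr6 on 60% fat when 10% fat room-air replicate 3 (adjusted p = 0.0128) was left out. Tlr6 on 10% fat was called lower without 10% fat oxygen replicate 3 or 10% fat room-air replicate 1 or 2 (adjusted p from 0.0194 to 0.0495). Tlr5, the flagellin receptor, had -0.14 on 60% and -0.21 on 10% fat and Tlr13, a receptor for bacterial ribosomal RNA in mice, 0.02 on 60% and 0.20 on 10% fat, neither called.

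The endosomal receptors Tlr7 and Tlr13 spread more widely among room-air libraries than among oxygen libraries. So did Tlr1, Tlr3, Tlr4, Tlr6, Tlr8 and Tlr9 in both diets, but not Tlr2 on 60% fat or Tlr5 on 10% fat. Over all tested genes, r within a group was 0.977 to 0.986 in room air on 60% fat and 0.98 to 0.987 on 10% fat. Under oxygen it was 0.991 to 0.992 on 60% fat and 0.988 to 0.993 on 10% fat. Tlr7 had 5.76, 6.36 and 7.60 RPKM in the 60% fat oxygen lungs, against 8.63, 3.79 and 11.3 RPKM in the 60% fat room-air lungs. On 10% fat Tlr7 had 6.60, 5.20 and 5.94 RPKM in the 10% fat oxygen lungs, against 3.89, 4.09 and 7.81 RPKM in the 10% fat room-air lungs. Tlr13 was likewise highest in replicate 3 of each room-air group, with 9.44, 3.85 and 12.1 RPKM on 60% fat and 4.87, 3.59 and 10.9 RPKM on 10% fat. On 60% fat room-air replicate 2 was the lowest library for both genes. Markers of monocytes and interstitial macrophages, 10 of 10 tested, summed to 188 RPKM in that library and to 343 and 236 RPKM in the replicates 3. Of these 10 markers 5 were lower on 60% fat and 6 on 10% fat under oxygen, and their sums ran from 150 to 204 RPKM in the 60% fat oxygen lungs, against 188 to 343 RPKM in the 60% fat room-air lungs. The sums were 157 to 197 RPKM in the 10% fat oxygen lungs, against 190 to 236 RPKM in the 10% fat room-air lungs. Dendritic cell markers were lower for 4 of 6 in each diet, with sums of 13 to 16.5 RPKM in the 60% fat oxygen lungs, against 23.3 to 33.6 RPKM in the 60% fat room-air lungs, and of 13.1 to 15.1 RPKM in the 10% fat oxygen lungs, against 33.1 to 33.6 RPKM in the 10% fat room-air lungs. No marker of either list was at 0 in every library. The part of these cells in the receptor differences was not tested.

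Cd14, the co-receptor that hands lipopolysaccharide to TLR4, had 35.9, 29.6 and 34.5 RPKM in the 60% fat oxygen lungs, against 29.0, 41.2 and 45.01 RPKM in the 60% fat room-air lungs. On 10% fat Cd14 had 31.6, 31.3 and 38.7 RPKM in the 10% fat oxygen lungs, against 28.0, 58.8 and 97.1 RPKM in the 10% fat room-air lungs. The room-air lungs on 10% fat spanned the whole range, and the highest library was also the one with the high alveolar macrophage and neutrophil markers. Cd14 had a log2 change of -0.18 (SE 0.33, adjusted p = 0.649) on 60% fat and -0.68 (SE 0.33, adjusted p = 0.0896) on 10% fat. Without 10% fat room-air replicate 1, Cd14 on 10% fat was called lower at -1.15 (adjusted p = 0.000834), and without 10% fat room-air replicate 3 it was -0.27 (adjusted p = 0.406). Alveolar macrophage markers, 10 of 10 tested, were lower for 5 and higher for 2 on 60% fat and lower for 4 on 10% fat, and their sums were 606 to 1280 RPKM in the 60% fat oxygen lungs, against 811 to 2630 RPKM in the 60% fat room-air lungs. In the 10% fat oxygen lungs they were 624 to 780 RPKM, against 776 to 6280 RPKM in the 10% fat room-air lungs, and their part in the Cd14 values was not tested.

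Ly96, which encodes MD-2, had 8.33, 10.6 and 8.08 RPKM in the 60% fat oxygen lungs, against 9.25, 8.54 and 11.1 RPKM in the 60% fat room-air lungs. On 10% fat Ly96 had 10.9, 10.99 and 9.24 RPKM in the 10% fat oxygen lungs, against 5.10, 9.44 and 13.1 RPKM in the 10% fat room-air lungs. The groups overlapped in both diets, and the 10% fat room-air lungs again spread widest. The log2 change of Ly96 was -0.09 (SE 0.25, adjusted p = 0.759) on 60% fat and 0.25 (SE 0.25, adjusted p = 0.399) on 10% fat. On 10% fat it turned to -0.10 (adjusted p = 0.631) without 10% fat room-air replicate 1 and was called higher at 0.54 without 10% fat room-air replicate 3 (adjusted p = 0.0474).

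Of the adaptors, Ticam2 fell in both diets, Ticam1 rose on 60% fat and Myd88 was not called. Ticam2 encodes TRAM, which links TLR4 to TRIF, and had 0.630, 0.591 and 0.723 RPKM in the 60% fat oxygen lungs, against 2.50, 1.26 and 3.49 RPKM in the 60% fat room-air lungs. On 10% fat it had 0.402, 0.457 and 0.381 RPKM in the 10% fat oxygen lungs, against 1.83, 1.56 and 2.82 RPKM in the 10% fat room-air lungs. Every oxygen library was under 1 RPKM and every room-air library above it, so Ticam2 passed the filter on low values through room air alone. Ticam2 had a log2 change of -1.27 (SE 0.25, adjusted p = 0.000867) on 60% fat and -1.46 (SE 0.25, adjusted p = 0.000348) on 10% fat. Exons of Ticam2 overlap those of Tmed7 on the same strand over 14.5% of their length in the GENCODE vM21 annotation, so reads there cannot be assigned to one of them. Tmed7 itself had log2 changes of 0.21 on 60% and 0.19 on 10% fat.

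Myd88, the adaptor of most Toll-like receptors and of the interleukin-1 receptor, had 32.2, 27.4 and 35.7 RPKM in the 60% fat oxygen lungs, against 33.4, 37.7 and 36.1 RPKM in the 60% fat room-air lungs. On 10% fat Myd88 had 33.6, 29.6 and 40.5 RPKM in the 10% fat oxygen lungs, against 33.98, 32.4 and 45.1 RPKM in the 10% fat room-air lungs. Groups overlapped in both diets, and its log2 change was -0.17 (SE 0.14, adjusted p = 0.302) on 60% fat and -0.10 (SE 0.14, adjusted p = 0.573) on 10% fat. Exons of Myd88 overlap Acaa1a on the opposite strand over 11.3% of their length. Ticam1, which encodes TRIF, averaged 9.30 ± 0.242 RPKM in the 60% fat oxygen lungs and 7.51 ± 0.988 RPKM in the 60% fat room-air lungs (SD, n = 3 each). Ticam1 had a log2 change of 0.30 (SE 0.10, adjusted p = 0.0246) on 60% fat and 0.22 (SE 0.10, adjusted p = 0.0886) on 10% fat. The 60% fat call was lost without 60% fat oxygen replicate 2 or 3 or 60% fat room-air replicate 1 or 3 (adjusted p from 0.0509 to 0.102), and a 10% fat call appeared without 10% fat oxygen replicate 3 or 60% fat room-air replicate 2 (adjusted p from 0.0422 to 0.0465).

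The IRAK kinases, which sit on MyD88 in the Myddosome, moved apart. Irak4, the first kinase of that complex, fell, while Irak1, Irak2 and the IRAK1-binding Irak1bp1 rose in both diets. Irak4 had 4.29, 2.79 and 3.25 RPKM in the 60% fat oxygen lungs, against 8.62, 5.42 and 8.63 RPKM in the 60% fat room-air lungs. On 10% fat Irak4 had 2.89, 3.37 and 2.79 RPKM in the 10% fat oxygen lungs, against 6.54, 4.79 and 8.52 RPKM in the 10% fat room-air lungs. All oxygen libraries lay under all room-air libraries, and the log2 change of Irak4 was -1.02 (SE 0.21, adjusted p = 0.00126) on 60% fat and -0.99 (SE 0.21, adjusted p = 0.00172) on 10% fat. Exons of Irak4 overlap the opposite-strand gene Twf1 over 7.87% of their length, and whether the counting used strand is not stated, so reads there cannot be told apart.

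Irak2 averaged 29.1 ± 1.80 RPKM in the 60% fat oxygen lungs and 15.8 ± 1.31 RPKM in the 60% fat room-air lungs, and 28.6 ± 0.994 RPKM in the 10% fat oxygen lungs and 17.9 ± 1.33 RPKM in the 10% fat room-air lungs (SD, n = 3 each). Irak2 had a log2 change of 0.86 (SE 0.08, adjusted p = 3.12e-06) on 60% fat and 0.66 (SE 0.08, adjusted p = 3.06e-05) on 10% fat. As a ratio, Irak2 over Irak4 was 8.69 ± 1.72 in the 60% fat oxygen lungs and 2.18 ± 0.608 in the 60% fat room-air lungs, and 9.51 ± 0.821 in the 10% fat oxygen lungs and 2.82 ± 0.687 in the 10% fat room-air lungs. Ratios within a library are a description here, chosen after their values were seen. Irak1 had log2 changes of 0.45 on 60% and 0.40 on 10% fat, and Irak1bp1 0.53 on 60% and 0.53 on 10% fat. Irak3, which encodes the inhibitory IRAK-M, was not called (-0.28 on 60% and -0.21 on 10% fat), but without 60% fat room-air replicate 2 (adjusted p = 0.00942) it was called lower on 60% fat.

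**Figure D2:**
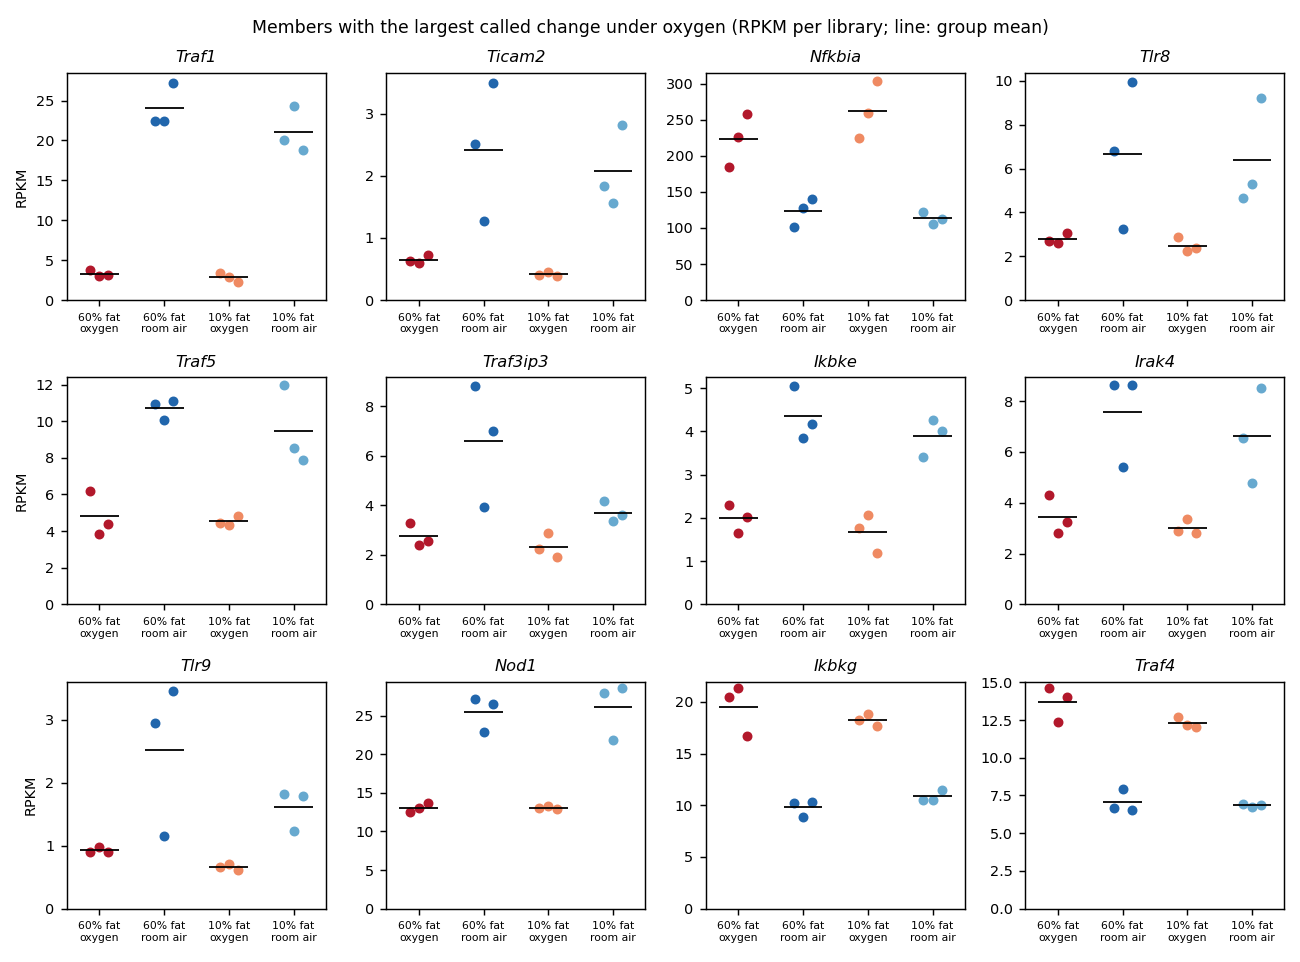
RPKM of each library, with group means as lines, for the 12 genes with the largest called change under oxygen. Traf1 lies between 2.24 and 3.79 RPKM in the oxygen lungs, against 18.8 to 27.2 RPKM in the room-air lungs, and Nfkbia, Ikbkg and Traf4 lie higher in every oxygen library.

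TRAF proteins carry the signal of Toll-like, interleukin-1 and tumour necrosis factor receptors onward, several of them as ubiquitin ligases. Of the 10 genes with a TRAF symbol, 3 rose and 5 fell in each diet, where 26.3% of all tested genes were higher and 36.5% lower on 60% fat, and 25.3% higher and 34.2% lower on 10% fat. Traf1 changed most of all 58 genes. Traf1, an adaptor of tumour necrosis factor receptors without a RING domain, had 3.79, 3.04 and 3.09 RPKM in the 60% fat oxygen lungs, against 22.5, 22.4 and 27.2 RPKM in the 60% fat room-air lungs. On 10% fat Traf1 had 3.44, 2.92 and 2.24 RPKM in the 10% fat oxygen lungs, against 20.1, 24.3 and 18.8 RPKM in the 10% fat room-air lungs. Every oxygen library stood far under every room-air library, and its means were 6.44-fold lower in each diet on the scale with the pseudocount. Traf1 had a log2 change of -2.69 (SE 0.15, adjusted p = 4.16e-08) on 60% fat and -2.69 (SE 0.15, adjusted p = 6.54e-08) on 10% fat. Over the 22 alternative analyses of each diet it stayed between -2.85 and -2.52.

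Within the family, Traf1 made up 3.43% ± 0.413 of the summed RPKM of Traf1 to Traf7 in the 60% fat oxygen lungs and 21.7% ± 2.22 in the 60% fat room-air lungs. On 10% fat the share was 3.1% ± 0.654 in the oxygen lungs and 20.4% ± 3.05 in the room-air lungs (SD, n = 3 each). Traf6, the ubiquitin ligase that joins IRAK to TAK1, held 17.9% ± 1.79 in the 60% fat oxygen lungs and 8.52% ± 1.07 in the 60% fat room-air lungs. The sum of the 7 genes was 96.4 ± 3.82 RPKM in the 60% fat oxygen lungs and 111 ± 1.69 RPKM in the 60% fat room-air lungs.

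**Figure D3:**
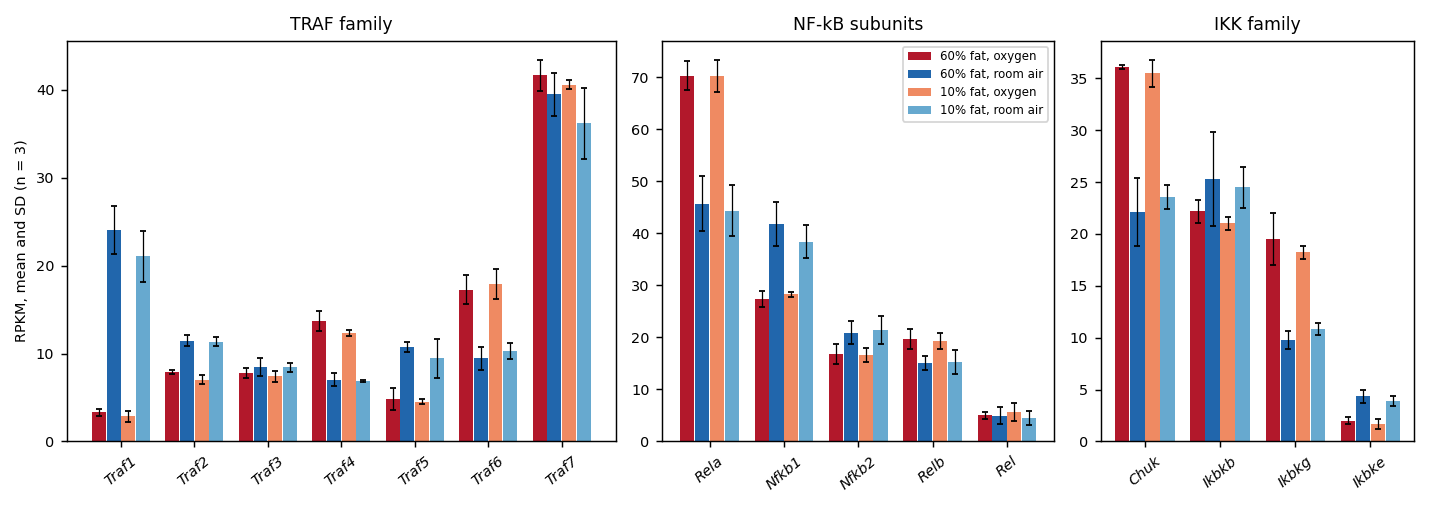
Mean RPKM with SD of the TRAF genes (left), the NF-kB subunits (middle) and the IKK genes (right) in each group of 3 libraries. The Traf1 bars stand at a few RPKM under oxygen and above 20 RPKM in room air, the ratio of Rela to Nfkb1 is higher in both oxygen groups, and the Chuk mean exceeds the Ikbkb mean in the oxygen groups and lies under it in the room-air groups.

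Traf4, a family member of epithelia, had 14.6, 12.4 and 14.03 RPKM in the 60% fat oxygen lungs, against 6.69, 7.91 and 6.54 RPKM in the 60% fat room-air lungs. On 10% fat Traf4 had 12.7, 12.2 and 12.1 RPKM in the 10% fat oxygen lungs, against 6.92, 6.75 and 6.89 RPKM in the 10% fat room-air lungs. The groups did not overlap in either diet, and the log2 change was 0.91 (SE 0.09, adjusted p = 4.04e-06) on 60% fat and 0.80 (SE 0.09, adjusted p = 1.39e-05) on 10% fat. Traf6 averaged 17.3 ± 1.66 RPKM in the 60% fat oxygen lungs and 9.44 ± 1.29 RPKM in the 60% fat room-air lungs (SD, n = 3 each), and its log2 changes were 0.84 on 60% and 0.78 on 10% fat. Traf3ip2, which encodes Act1 of the interleukin-17 receptor, had 0.34 on 60% and 0.52 on 10% fat, and its 60% fat call was lost without 60% fat oxygen replicate 2 or 3 or 60% fat room-air replicate 2 (adjusted p from 0.0529 to 0.0882).

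Traf5, a family member that serves receptors of the tumour necrosis factor family, had 6.21, 3.85 and 4.36 RPKM in the 60% fat oxygen lungs, against 10.96, 10.1 and 11.1 RPKM in the 60% fat room-air lungs. On 10% fat Traf5 had 4.44, 4.32 and 4.85 RPKM in the 10% fat oxygen lungs, against 11.98, 8.51 and 7.86 RPKM in the 10% fat room-air lungs. Oxygen libraries lay under room-air libraries in both diets, and the log2 change was -1.10 (SE 0.17, adjusted p = 0.00011) on 60% fat and -0.96 (SE 0.17, adjusted p = 0.000356) on 10% fat. Traf2 also fell, at -0.51 on 60% and -0.65 on 10% fat, as did Traf3ip1 at -0.60 on 60% and -0.60 on 10% fat. Traf3 (-0.11 on 60% and -0.18 on 10% fat) and Traf7 (0.08 on 60% and 0.17 on 10% fat) were not called, though Traf7 on 10% fat was called higher without 10% fat room-air replicate 1 (adjusted p = 0.0122) and under median-ratio scaling.

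Traf3ip3, a TRAF3-binding protein of lymphocytes, had 3.27, 2.41 and 2.57 RPKM in the 60% fat oxygen lungs, against 8.82, 3.94 and 7.003 RPKM in the 60% fat room-air lungs. On 10% fat Traf3ip3 had 2.23, 2.88 and 1.89 RPKM in the 10% fat oxygen lungs, against 4.17, 3.37 and 3.59 RPKM in the 10% fat room-air lungs. Exons of Traf3ip3 overlap an opposite-strand gene over 7.3% of their length. The groups were apart in each diet, and 60% fat room-air replicates 1 and 3 stood above every other library. Traf3ip3 had a log2 change of -1.07 (SE 0.23, adjusted p = 0.00146) on 60% fat and -0.58 (SE 0.23, adjusted p = 0.045) on 10% fat. The 10% fat call was lost without 60% fat oxygen replicate 2 or 3, 10% fat oxygen replicate 1 or 3, 60% fat room-air replicate 3 or 10% fat room-air replicate 1, 2 or 3 (adjusted p from 0.0509 to 0.149), and under quantile normalization (adjusted p = 0.211). Markers of T and NK cells were lower under oxygen for 7 of 8 on 60% fat and for 4 of 8 on 10% fat. Their sums were 14.4 to 17.1 RPKM in the 60% fat oxygen lungs, against 27.8 to 35.8 RPKM in the 60% fat room-air lungs, and 10.4 to 15.4 RPKM in the 10% fat oxygen lungs, against 20.5 to 22.9 RPKM in the 10% fat room-air lungs. B cell markers were lower for 4 of 8 on 60% fat, while on 10% fat 2 were higher and 1 lower. Their sums were 64.8 to 70.8 RPKM in the 60% fat oxygen lungs, against 67.4 to 159 RPKM in the 60% fat room-air lungs, and 41.0 to 60.5 RPKM in the 10% fat oxygen lungs, against 33.3 to 53.6 RPKM in the 10% fat room-air lungs. No marker of these lists was at 0 in every library, and the part of lymphocytes in Traf3ip3, Traf1, Traf5 and Tlr9 was not tested.

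Of the 4 RIP kinases, 2 were called on 60% fat and none on 10% fat. Among all tested genes 62.8% were called on 60% fat and 59.5% on 10% fat. Ripk1, a kinase at the branch between survival and cell death, had log2 changes of 0.09 on 60% and 0.02 on 10% fat, and Ripk3, the kinase of necroptosis, 0.02 on 60% and -0.14 on 10% fat, with no call. Ripk2, the kinase that NOD1 and NOD2 engage, was called lower on 60% fat at -0.40 (SE 0.16, adjusted p = 0.0436), and had -0.31 (SE 0.16, adjusted p = 0.11) on 10% fat. Ripk4, a kinase of epithelial differentiation, was called higher on 60% fat at 0.32 (SE 0.11, adjusted p = 0.0199) and had 0.17 (SE 0.11, adjusted p = 0.193) on 10% fat. The Ripk2 call was lost without 60% fat oxygen replicate 1 or 2, 10% fat oxygen replicate 1, 60% fat room-air replicate 1 or 3 or 10% fat room-air replicate 1 (adjusted p from 0.0503 to 0.139), and the Ripk4 call without 60% fat oxygen replicate 3 or 60% fat room-air replicate 1 or 3 (adjusted p from 0.0521 to 0.0929).

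In the IKK family, Ikbkg and Chuk rose and Ikbke fell in both diets, while Ikbkb was not called. Ikbkg, the scaffold NEMO, had 20.5, 21.3 and 16.7 RPKM in the 60% fat oxygen lungs, against 10.3, 8.82 and 10.3 RPKM in the 60% fat room-air lungs. On 10% fat Ikbkg had 18.2, 18.9 and 17.6 RPKM in the 10% fat oxygen lungs, against 10.5, 10.5 and 11.5 RPKM in the 10% fat room-air lungs. The groups were far apart in both diets, and the log2 change was 0.95 (SE 0.10, adjusted p = 5.78e-06) on 60% fat and 0.72 (SE 0.10, adjusted p = 6.06e-05) on 10% fat. Its exons overlap G6pdx on the opposite strand over 5.15% of their length. Chuk, the kinase IKK alpha, averaged 36.1 ± 0.157 RPKM in the 60% fat oxygen lungs and 22.1 ± 3.26 RPKM in the 60% fat room-air lungs (SD, n = 3 each), with log2 changes of 0.71 on 60% and 0.58 on 10% fat.

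Ikbkb, the kinase IKK beta, which marks IkB alpha for breakdown, had 22.6, 20.9 and 23.0 RPKM in the 60% fat oxygen lungs, against 28.3, 20.1 and 27.5 RPKM in the 60% fat room-air lungs. On 10% fat Ikbkb had 20.7, 21.7 and 20.6 RPKM in the 10% fat oxygen lungs, against 26.5, 22.7 and 24.2 RPKM in the 10% fat room-air lungs. On 60% fat the groups overlapped through room-air replicate 2, and on 10% fat the oxygen libraries lay just under room air. Ikbkb had a log2 change of -0.17 (SE 0.12, adjusted p = 0.213) on 60% fat and -0.21 (SE 0.12, adjusted p = 0.131) on 10% fat. Without 60% fat room-air replicate 2, Ikbkb was called lower on 60% fat at -0.33 (adjusted p = 0.00401) and on 10% fat at -0.21 (adjusted p = 0.0222). Chuk over Ikbkb was 1.63 ± 0.0862 in the 60% fat oxygen lungs and 0.878 ± 0.0328 in the 60% fat room-air lungs, and 1.69 ± 0.0233 in the 10% fat oxygen lungs and 0.965 ± 0.0366 in the 10% fat room-air lungs (SD, n = 3 each), again a ratio chosen after its values were seen.

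Ikbke, the IKK-related kinase of the interferon response, had 2.30, 1.65 and 2.01 RPKM in the 60% fat oxygen lungs, against 5.05, 3.85 and 4.18 RPKM in the 60% fat room-air lungs. On 10% fat Ikbke had 1.76, 2.07 and 1.18 RPKM in the 10% fat oxygen lungs, against 3.40, 4.27 and 4.001 RPKM in the 10% fat room-air lungs. Oxygen libraries lay under room-air libraries in both diets. Ikbke had a log2 change of -0.97 (SE 0.17, adjusted p = 0.000307) on 60% fat and -1.03 (SE 0.17, adjusted p = 0.00021) on 10% fat.

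The NF-kB subunits split the same way in both diets: Rela and Relb rose, Nfkb1 and Nfkb2 fell and Rel was not called. Rela, the p65 subunit that carries a transactivation domain, had 68.0, 69.6 and 73.3 RPKM in the 60% fat oxygen lungs, against 44.2, 51.6 and 41.3 RPKM in the 60% fat room-air lungs. On 10% fat Rela had 67.1, 73.2 and 70.5 RPKM in the 10% fat oxygen lungs, against 49.6, 40.1 and 43.2 RPKM in the 10% fat room-air lungs. Every oxygen library was above every room-air library, and the log2 change was 0.62 (SE 0.10, adjusted p = 0.000118) on 60% fat and 0.66 (SE 0.10, adjusted p = 8.25e-05) on 10% fat. Nfkb1, which encodes p105 and its product p50, had 26.7, 26.3 and 29.2 RPKM in the 60% fat oxygen lungs, against 43.0, 37.2 and 45.4 RPKM in the 60% fat room-air lungs. On 10% fat Nfkb1 had 28.0, 28.0 and 28.9 RPKM in the 10% fat oxygen lungs, against 40.9, 34.9 and 39.4 RPKM in the 10% fat room-air lungs. Here every oxygen library was under every room-air library, and the log2 change was -0.60 (SE 0.09, adjusted p = 8.23e-05) on 60% fat and -0.43 (SE 0.09, adjusted p = 0.00106) on 10% fat.

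Rela over Nfkb1 was 2.57 ± 0.0683 in the 60% fat oxygen lungs and 1.11 ± 0.249 in the 60% fat room-air lungs, and 2.48 ± 0.116 in the 10% fat oxygen lungs and 1.15 ± 0.0584 in the 10% fat room-air lungs (SD, n = 3 each). Rela made up 50.5% ± 1.27 of the summed RPKM of the 5 subunits in the 60% fat oxygen lungs and 35.6% ± 4.78 in the 60% fat room-air lungs. These shares were chosen after their values were seen. Relb, the partner of p52, had log2 changes of 0.38 on 60% and 0.34 on 10% fat, and Nfkb2, which encodes p100 and p52, -0.31 on 60% and -0.35 on 10% fat. Both were less firm: Relb was lost on 60% fat without 60% fat oxygen replicate 3 or 60% fat room-air replicate 1 (adjusted p from 0.0551 to 0.0615) and on 10% fat without 10% fat oxygen replicate 2 or 10% fat room-air replicate 1 or 2 (adjusted p from 0.0558 to 0.103). Nfkb2 was lost on 60% fat without 60% fat oxygen replicate 1 or 2 or 60% fat room-air replicate 1 or 3 (adjusted p from 0.0527 to 0.152) and on 10% fat without 10% fat oxygen replicate 1 or 10% fat room-air replicate 3 (adjusted p from 0.0882 to 0.0982). Median-ratio scaling also ended the Nfkb2 call in both diets. Rel, the c-Rel subunit of lymphoid and myeloid cells, had 0.06 on 60% and 0.29 on 10% fat, and its highest library, at 7.69 RPKM, was 10% fat oxygen replicate 3, the one with high neutrophil markers among the oxygen lungs.

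**Figure D4:**
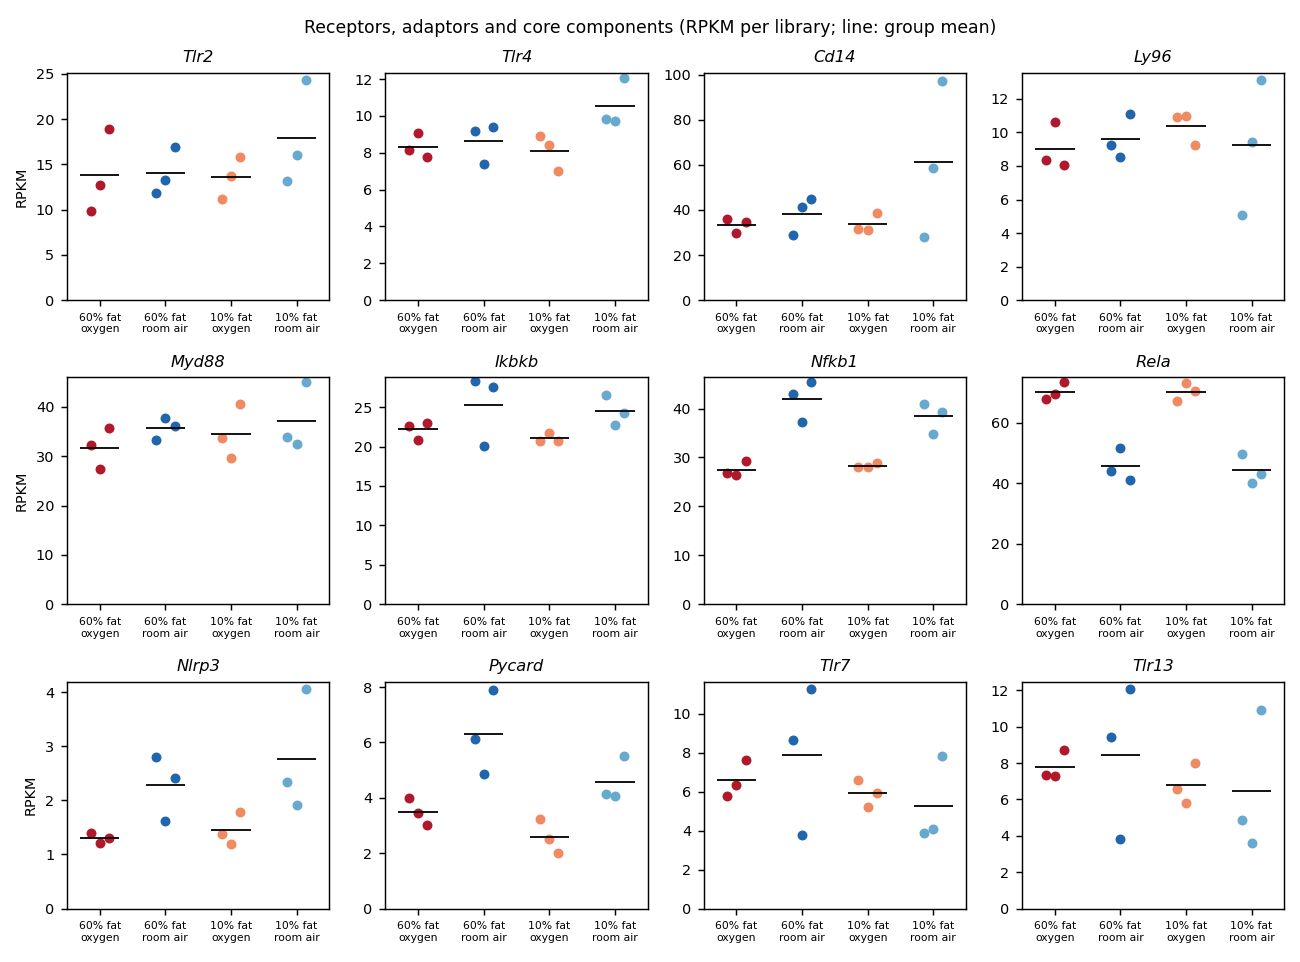
RPKM of each library, with group means as lines, for receptors, co-receptors, adaptors and core components. Rela lies higher and Nfkb1 and Pycard lower in every oxygen library, while Tlr2, Cd14, Ly96 and Myd88 overlap between oxygen and room air.

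Of the IkB genes, Nfkbia, Nfkbib and Nfkbil1 rose in both diets and Nfkbid fell in both. Nfkbia, which encodes IkB alpha, had the highest level of the 58 genes in each group. It had 185, 226 and 258 RPKM in the 60% fat oxygen lungs, against 101, 128 and 139.6 RPKM in the 60% fat room-air lungs. On 10% fat Nfkbia had 224, 259.5 and 304 RPKM in the 10% fat oxygen lungs, against 122, 106 and 113 RPKM in the 10% fat room-air lungs. The groups did not overlap, and 10% fat oxygen replicate 3 was the highest. Nfkbia had a log2 change of 0.86 (SE 0.15, adjusted p = 0.000295) on 60% fat and 1.20 (SE 0.15, adjusted p = 2.56e-05) on 10% fat. The interaction was -0.34 (SE 0.21, adjusted p = 0.605), so a difference of this effect between the diets did not pass the threshold.

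Nfkbib, or IkB beta, averaged 22.4 ± 3.13 RPKM in the 60% fat oxygen lungs and 14.6 ± 0.730 RPKM in the 60% fat room-air lungs (SD, n = 3 each), with log2 changes of 0.59 on 60% and 0.71 on 10% fat. Exons of Nfkbib overlap Ccer2 on the opposite strand over 14.5% of their length. Nfkbil1, an IkB-like gene, had 0.51 on 60% and 0.91 on 10% fat. Nfkbid, a nuclear IkB induced in lymphocytes, had -0.75 on 60% and -0.60 on 10% fat, and was lost on 60% fat without 60% fat room-air replicate 3 (adjusted p = 0.0504) and on 10% fat without 10% fat oxygen replicate 1 or 2 or 10% fat room-air replicate 1 or 3 (adjusted p from 0.0779 to 0.125). Nfkbie, or IkB epsilon, was called lower on 60% fat at -0.52 (SE 0.19, adjusted p = 0.0274), a call lost without 60% fat oxygen replicate 2 or 3 or 60% fat room-air replicate 1 or 3 (adjusted p from 0.0566 to 0.121), and had -0.16 (SE 0.19, adjusted p = 0.479) on 10% fat. Nfkbiz, a nuclear IkB of the interleukin-17 response, had 10.02, 11.3 and 22.3 RPKM in the 10% fat oxygen lungs, against 8.64, 13.3 and 12.6 RPKM in the 10% fat room-air lungs. It was called in neither diet (0.15 on 60% and 0.26 on 10% fat), and its highest value stood in 10% fat oxygen replicate 3.

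The NOD receptors, which sense fragments of bacterial peptidoglycan, both fell in both diets. Nod1 had 12.5, 13.04 and 13.8 RPKM in the 60% fat oxygen lungs, against 27.2, 22.9 and 26.6 RPKM in the 60% fat room-air lungs. On 10% fat Nod1 had 13.1, 13.4 and 12.9 RPKM in the 10% fat oxygen lungs, against 28.0, 21.8 and 28.6 RPKM in the 10% fat room-air lungs. All 6 oxygen libraries lay between 12.5 and 13.8 RPKM, and all 6 room-air libraries between 21.8 and 28.6 RPKM. Nod1 had a log2 change of -0.93 (SE 0.10, adjusted p = 9.64e-06) on 60% fat and -0.96 (SE 0.10, adjusted p = 9.8e-06) on 10% fat. Nod2 averaged 1.45 ± 0.143 RPKM in the 60% fat oxygen lungs and 2.17 ± 0.311 RPKM in the 60% fat room-air lungs, and 1.54 ± 0.193 RPKM in the 10% fat oxygen lungs and 3.23 ± 0.592 RPKM in the 10% fat room-air lungs (SD, n = 3 each). Nod2 had a log2 change of -0.45 (SE 0.14, adjusted p = 0.0154) on 60% fat and -0.86 (SE 0.14, adjusted p = 0.000237) on 10% fat.

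Of the inflammasome genes, the adaptor Pycard and the sensors Nlrp3 and Nlrc4 were called lower in both diets. Nlrc4 reached 1 RPKM in 3 libraries, all in room air, so it passed the filter only through the exposure where it was higher. Pycard, which encodes ASC, had 3.995, 3.45 and 3.01 RPKM in the 60% fat oxygen lungs, against 6.12, 4.84 and 7.90 RPKM in the 60% fat room-air lungs. On 10% fat Pycard had 3.23, 2.50 and 2.003 RPKM in the 10% fat oxygen lungs, against 4.14, 4.05 and 5.505 RPKM in the 10% fat room-air lungs. Every oxygen library was under every room-air library of its diet, and the log2 change was -0.75 (SE 0.19, adjusted p = 0.00415) on 60% fat and -0.73 (SE 0.19, adjusted p = 0.00542) on 10% fat. Exons of Pycard overlap a transcript on the opposite strand over 12.8% of their length.

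Nlrp3, a sensor of ion flux and membrane damage, had 1.40, 1.22 and 1.31 RPKM in the 60% fat oxygen lungs, against 2.81, 1.61 and 2.41 RPKM in the 60% fat room-air lungs. On 10% fat Nlrp3 had 1.37, 1.19 and 1.79 RPKM in the 10% fat oxygen lungs, against 2.33, 1.92 and 4.05 RPKM in the 10% fat room-air lungs. The groups did not overlap, and the highest library was 10% fat room-air replicate 3, which also had high alveolar macrophage and neutrophil markers. On 60% fat Nlrp3 was highest in room-air replicate 1, while both marker sums were highest in replicate 3. Nlrp3 had a log2 change of -0.59 (SE 0.23, adjusted p = 0.0369) on 60% fat and -0.70 (SE 0.23, adjusted p = 0.0177) on 10% fat. The 60% fat call was lost without 60% fat oxygen replicate 1, 2 or 3 or 60% fat room-air replicate 1 or 3 (adjusted p from 0.0599 to 0.135) and the 10% fat call without 10% fat oxygen replicate 2 or 10% fat room-air replicate 3 (adjusted p from 0.0665 to 0.0796), and quantile normalization ended both, with adjusted p of 0.299 on 60% fat and 0.152 on 10% fat. Without 10% fat room-air replicate 3, the log2 change on 10% fat was -0.44. Neutrophil markers, 7 of 8 in the table, were lower for 2 of 7 in each diet, with sums of 167 to 460 RPKM in the 60% fat oxygen lungs, against 855 to 3480 RPKM in the 60% fat room-air lungs, and of 94.4 to 1810 RPKM in the 10% fat oxygen lungs, against 446 to 2900 RPKM in the 10% fat room-air lungs. None of these markers was at 0 in every library, and their part in Nlrp3 was not tested.

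The other NLR genes tested went different ways. Nlrc3, an inhibitory NLR of lymphocytes, was the one NLR gene that rose, with 2.15, 1.73 and 2.06 RPKM in the 60% fat oxygen lungs, against 1.02, 0.464 and 1.12 RPKM in the 60% fat room-air lungs. In the 10% fat oxygen lungs it had 1.23, 1.45 and 1.37 RPKM, against 0.780, 0.530 and 0.776 RPKM in the 10% fat room-air lungs. Its log2 changes were 0.89 on 60% and 0.63 on 10% fat. Every oxygen library was above 1 RPKM, while the room-air libraries alone would not have passed the filter on low values. Nlrc4, the sensor behind the flagellin receptors, had -0.69 on 60% and -0.62 on 10% fat, and its call was lost on 60% fat without 60% fat oxygen replicate 1 (adjusted p = 0.0533) and on 10% fat without 10% fat oxygen replicate 1, 2 or 3 (adjusted p from 0.0534 to 0.105). Nlrc5, an activator of MHC class I genes, had -0.56 (SE 0.23, adjusted p = 0.0494) on 60% fat and -0.91 (SE 0.23, adjusted p = 0.00445) on 10% fat. The Nlrc5 call on 60% fat was lost without 60% fat oxygen replicate 1, 2 or 3, 10% fat oxygen replicate 1 or 2, 60% fat room-air replicate 1 or 3 or 10% fat room-air replicate 3 (adjusted p from 0.0529 to 0.182). In all, 15 of the 22 alternatives ended that call, among them no filter, median-ratio scaling and a fit to only the compared libraries. Nlrx1, an NLR of mitochondria, had -0.25 on 60% and -0.25 on 10% fat and Nlrp1a -0.13 on 60% and -0.27 on 10% fat, with no call. On 10% fat Nlrx1 was called lower without 10% fat room-air replicate 1 (adjusted p = 0.0223) and Nlrp1a without 10% fat room-air replicate 2 (adjusted p = 0.0375). Reads of Nlrp1a and its near copy Nlrp1b may be split or shared, so both are uncertain.

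Among the 17 genes that were not tested, 15 belong to the NLR family, whose other members in the table number 6, and 2 are Toll-like receptors. Nlrp4a, Nlrp4b, Nlrp4e, Nlrp9c and Nlrp14 were listed at 0 in every library. Nlrp2, Nlrp4c, Nlrp4f, Nlrp5, Nlrp9a and Nlrp9b stayed under 0.1 RPKM in every library, and several of these genes are known from oocytes. Nlrp6, a sensor known from gut epithelium, lay between 0.0476 and 0.221 RPKM, Nlrp10 between 0.0783 and 0.590 RPKM and Tlr12 between 0.257 and 0.734 RPKM. Tlr11 reached 1.12 RPKM and Nlrp1b 1.58 RPKM, both in 60% fat room-air replicate 3. With no filter on low values, Tlr11 was called lower under oxygen in both diets, Nlrp10 on 60% fat and Tlr12 on 10% fat. Of the 17715 genes tested in that fit, 9108 were called on 60% fat and 8470 on 10% fat. Tlr11 was also called lower in both diets with the filter at 0.3 RPKM. Nlrp12, known from neutrophils and dendritic cells, reached 1.21 RPKM in 10% fat oxygen replicate 3, against 0.171 and 0.0538 RPKM in the other two of that group, and 2.33 RPKM in 10% fat room-air replicate 3. Each of those libraries had the highest neutrophil markers of its group. On 60% fat this did not hold. There room-air replicate 3 had the highest neutrophil sum, but Nlrp12 was 0.4425 RPKM in it, against 0.841 and 0.574 RPKM in replicates 1 and 2. Among the 60% fat oxygen lungs, replicate 3 had the highest neutrophil sum and replicate 1 the highest Nlrp12, at 0.322 RPKM.

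Genes outside the rule that work with these proteins were followed through 4 lists. Of 28 NF-kB regulators in the table, 8 were higher and 7 lower on 60% fat, and 9 higher and 4 lower on 10% fat, with median log2 changes of 0.14 and 0.14, against -0.09 and -0.08 for all tested genes. Of all tested genes 26.3% were higher and 36.5% lower on 60% fat, and 25.3% higher and 34.2% lower on 10% fat. Fam105b, the linear-ubiquitin peptidase OTULIN, averaged 39.6 ± 1.41 RPKM in the 60% fat oxygen lungs and 16.97 ± 1.37 RPKM in the 60% fat room-air lungs (SD, n = 3 each), with log2 changes of 1.20 on 60% and 1.39 on 10% fat. Tab2, which brings TAK1 to ubiquitin chains, had 0.60 on 60% and 0.65 on 10% fat. Lower were Tradd, the adaptor of tumour necrosis factor receptor 1, at -0.79 on 60% and -0.89 on 10% fat, and Card10 at -0.57 on 60% and -0.67 on 10% fat.

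Of 21 tested partners of Toll-like receptors, 4 were higher and 12 lower on 60% fat, and 3 higher and 10 lower on 10% fat, with medians of -0.48 and -0.49. The shares of all tested genes were 26.3% higher and 36.5% lower on 60% fat, and 25.3% higher and 34.2% lower on 10% fat. Hsp90b1, the chaperone gp96 that folds these receptors, averaged 197 ± 6.30 RPKM in the 60% fat oxygen lungs and 372 ± 18.3 RPKM in the 60% fat room-air lungs, and 191 ± 6.64 RPKM in the 10% fat oxygen lungs and 489.5 ± 69.8 RPKM in the 10% fat room-air lungs (SD, n = 3 each). Its log2 changes were -0.91 on 60% and -1.35 on 10% fat. Unc93b1, which carries the nucleic acid receptors to endosomes, had -0.99 on 60% and -0.80 on 10% fat. Irf3, the interferon regulator under TRIF, had -0.69 on 60% and -0.61 on 10% fat, and the inhibitory receptor Sigirr -0.85 on 60% and -0.67 on 10% fat. Tollip, an inhibitor of IRAK1, went the other way at 0.49 on 60% and 0.55 on 10% fat.

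Of 26 tested partners of inflammasomes and RIP kinases, 2 were higher and 15 lower in each diet, with medians of -0.49 and -0.57, against 26.3% higher and 36.5% lower of all tested genes on 60% fat, and 25.3% and 34.2% on 10% fat. Mavs, the adaptor of cytosolic RNA sensing, had -0.96 on 60% and -1.13 on 10% fat, the RNA sensor Ddx58 -0.86 on 60% and -0.86 on 10% fat and the death adaptor Fadd -0.92 on 60% and -1.18 on 10% fat. Ciita, the activator of MHC class II genes, had -1.19 on 60% and -1.77 on 10% fat. Cflar, the inhibitor of caspase-8, was called lower on 10% fat at -0.72 (SE 0.09, adjusted p = 1.96e-05) and not on 60% fat, at -0.19 (SE 0.09, adjusted p = 0.0663).

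Of 36 known NF-kB target genes, 15 were higher and 6 lower on 60% fat, and 14 higher and 5 lower on 10% fat, with medians of 0.58 and 0.28. Among all tested genes 26.3% were higher and 36.5% lower on 60% fat, and 25.3% higher and 34.2% lower on 10% fat. Ptgs2, or cyclooxygenase 2, averaged 51.2 ± 14.9 RPKM in the 60% fat oxygen lungs and 6.496 ± 0.479 RPKM in the 60% fat room-air lungs, and 48.1 ± 7.24 RPKM in the 10% fat oxygen lungs and 9.01 ± 1.88 RPKM in the 10% fat room-air lungs (SD, n = 3 each). Ptgs2 had a log2 change of 2.84 (SE 0.21, adjusted p = 3.41e-07) on 60% fat and 2.36 (SE 0.21, adjusted p = 1.8e-06) on 10% fat. The survival gene Bcl2l1 had 1.85 on 60% and 2.26 on 10% fat, the early response gene Ier3 1.92 on 60% and 2.191 on 10% fat and the adhesion molecule Icam1 1.12 on 60% and 1.06 on 10% fat. All 4 are also regulated by factors other than NF-kB. None of the 4 lists held a gene called between the diets or for the interaction.

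Diet changed none of the 58 genes past the threshold in either exposure. In room air 20 of all tested genes (0.15%) differed between 60% and 10% fat, and under oxygen 1 gene (0.00751%) did. The interaction, in which the log2 change under oxygen on 10% fat is subtracted from that on 60% fat, called 5 genes (0.0375%). None of these was among the 58 by limma with Benjamini-Hochberg adjustment. At an unadjusted p under 0.05 in this fit, which has no block, the counts among the 58 were 5 in room air (Nod2, Ripk4, Traf3ip3, Tlr1 and Nfkbid), 1 under oxygen (Nlrc3) and 1 for the interaction (Nfkbil1). With replicate numbers as a block within each exposure, 3.5% of all genes were called in room air, 0.766% under oxygen and 1.82% for the interaction, and again none of the 58. In room air the block also brought Pycard, Nfkbie, Tlr2, Tlr4, Tlr7, Tlr9, Tlr13, Cd14, Irak2, Irak1bp1 and Nfkbil1 under an unadjusted p of 0.05. Under oxygen it did so for Pycard, Tlr1, Irak1bp1, Nfkbia and Traf2, and in the interaction for Nfkbia, Nfkbie and Tlr4.

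**Figure D5:**
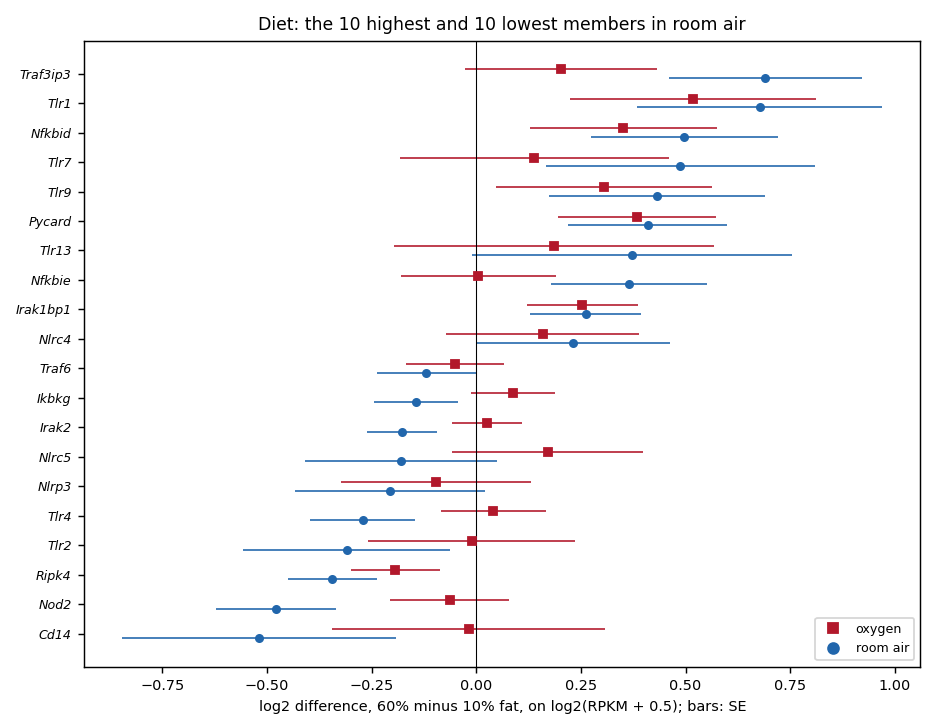
Log2 difference between 60% and 10% fat, with standard errors, under oxygen (squares) and in room air (circles), for the 10 genes with the highest and the 10 with the lowest difference in room air. No point passed the adjusted threshold, and Traf3ip3 at 0.69 and Cd14 at -0.52 mark the ends in room air.

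The differences between diets in room air ran from -0.52 for Cd14 to 0.69 for Traf3ip3 on the log2 scale, with standard errors between 0.08 and 0.38, and 41 of the 58 lay within 0.2 of no difference. Under oxygen they ran from -0.24 for Nfkbia to 0.52 for Tlr1, and 45 lay within 0.2. The standard errors leave room for differences of that size, so a missed threshold does not show equal levels. Traf3ip3 had 8.82, 3.94 and 7.003 RPKM in the 60% fat room-air lungs, against 4.17, 3.37 and 3.59 RPKM in the 10% fat room-air lungs. Replicate 2 on 60% fat fell within the 10% fat values. The difference was 0.69 (SE 0.23, adjusted p = 0.247). Nod2 had 1.82, 2.42 and 2.26 RPKM in the 60% fat room-air lungs, against 3.88, 2.74 and 3.05 RPKM in the 10% fat room-air lungs. Here all 60% fat libraries were lower, at -0.48 (SE 0.14, adjusted p = 0.202), the smallest adjusted p of the 58 in room air without the block.

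Ripk4 had 8.83, 9.86 and 8.51 RPKM in the 60% fat room-air lungs, against 10.1, 12.5 and 12.5 RPKM in the 10% fat room-air lungs. These groups did not overlap, and the difference was -0.34 (SE 0.11, adjusted p = 0.216). Pycard had 6.12, 4.84 and 7.90 RPKM in the 60% fat room-air lungs, against 4.14, 4.05 and 5.505 RPKM in the 10% fat room-air lungs, with overlapping groups and 0.41 (SE 0.19, adjusted p = 0.412). With the block the adjusted p in room air was 0.0543 for Pycard and 0.0693 for both Traf3ip3 and Ripk4, still over the threshold. Without 60% fat room-air replicate 2, the library low in B cell markers, 2 of the 58 were called higher on 60% fat in room air: Traf3ip3 at 0.996 (adjusted p = 0.0121) and Tlr9 at 0.82 (adjusted p = 0.0153). In that setting 352 genes were called in all. B cell markers in room air summed to 67.4 to 159 RPKM on 60% fat, against 33.3 to 53.6 RPKM on 10% fat, 1 of 8 was called higher, and their part in Traf3ip3 and Tlr9 was not tested.

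Nlrc3 was the 1 gene with an unadjusted p under 0.05 between diets under oxygen in the fit without the block. It had 2.15, 1.73 and 2.06 RPKM in the 60% fat oxygen lungs, against 1.23, 1.45 and 1.37 RPKM in the 10% fat oxygen lungs. The groups did not overlap, with a difference of 0.42 (SE 0.19, adjusted p = 0.592). For the interaction, Nfkbil1 had -0.39 (SE 0.15, adjusted p = 0.41), with log2 changes under oxygen of 0.51 on 60% fat and 0.91 on 10% fat. Traf1 had an interaction of -0.00 (SE 0.21, adjusted p = 0.999).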

How the data were processed

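RNA-seq of mouse whole lung was analysed, 12 libraries with 3 in each of 4 groups. The authors' deposited table holds RPKM per gene with a position and a status per library. Per the submitters' processing notes, bcl2fastq 2.19 and TopHat2 2.0.11 were used and the builds mm8 and mm9 are named without a role, so positions of the table are not printed. How RPKM was computed, and whether strand was used, is not stated in those notes, the labels or the table. Without counts, the depth behind each value is known only roughly (steps between low values, with a length offset of 200 bases chosen on these data), and genes near 1 RPKM are the least precise.

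From these values, 208 entries marked as low data were left out and 85 failed estimates treated as missing. The 13324 genes that reached 1 RPKM in 3 or more libraries were put on log2(RPKM + 0.5) and fitted with limma 3.58.1 in R 4.3.3, one mean per group over all 12 libraries with a variance trend. P-values are two-sided; a call means a Benjamini-Hochberg adjusted p under 0.05, taken over every tested gene. There were 5 comparisons: oxygen with room air for each diet, the diets with each other for each exposure, and the interaction. The members and gene lists were chosen with earlier results of these data known. Values per library are given for the 12 genes with the largest called change and for Tlr2, Tlr4, Cd14, Ly96, Myd88, Nfkb1, Rela, Nfkbia, Ikbkb, Nlrp3, Pycard and Nod1; the others are given by role, except Tlr7, Tlr13, Nfkbiz, Nlrc3, Nod2 and Ripk4, whose values per library were added after they were seen, and outside genes by the 4 smallest p of each list and comparison. Tmed7 was named after its values were seen. A gene that this rule names among the outside genes is not reported here.

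Replicate numbers were checked for pairing through the correlation, over genes, of each library's deviation from its group mean. Same-numbered libraries of one exposure had r from 0.293 to 0.486 (6 pairs), those across exposures from -0.131 to 0.220 (12 pairs), and other-numbered libraries of one exposure from -0.304 to 0.0102 (12 pairs). The numbers therefore pair the diets within an exposure, as a pattern of the data and not of the labels. The main fit has no block, so diet standard errors and p-values ignore this pairing unless the block is named. A block within exposure was fitted as an alternative for the diet comparisons and the interaction. Exon overlaps were taken from GENCODE vM21 on GRCm38, where 18 tested members overlap a gene on the opposite strand and 5 one on the same strand, and promoters from RefSeq on GRCm38.p6. The fit was tested on simulated data with independent noise between libraries, so that test does not cover the pairing of replicate numbers. Tables were summarised with pandas 2.3.3 and numpy 2.4.6 under Python 3.11.15 and drawn with matplotlib 3.10.9.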

Additional observations from a re-analysis of the deposited data

How the results depend on the processing

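Alternatives were pseudocounts of 0.1 and 1, no filter or one at 0.3 RPKM, median-ratio scaling, quantile normalization, no variance trend, robust variances, a fit to only the compared libraries, a replicate block, and leave-one-out fits. Of the 38 calls on 60% fat, 25 held in every alternative, and of the 35 on 10% fat 27 did; none of these calls changed sign. Leaving out a library moved the members called between 28 and 40 on 60% fat and between 30 and 37 on 10% fat, and between 0 and 2 for the diets in room air. The 2 appeared without 60% fat room-air replicate 2. In the same fits the calls over all genes ran from 7472 to 8452 on 60% fat and from 7019 to 8454 on 10% fat. The replicate block over all libraries called 39 on 60% fat and 39 on 10% fat, adding Tlr6 on 60% fat and Cd14, Tlr2, Ripk2 and Tlr6 on 10% fat. The replicate block within exposure called 0 members in the diet comparisons and the interaction, and called 466 genes in all in room air, against 20 without it, 102 under oxygen, against 1, and 243 for the interaction, against 5. Median-ratio scaling gave 34 calls on 60% fat and 35 on 10% fat, and quantile normalization 30 and 30. Under median-ratio scaling Nlrp3, Nfkb2, Ripk2 and Nlrc5 were lost on 60% fat. On 10% fat Traf3ip3 and Nfkb2 were lost and Traf7 and Ticam1 added. Over all tested genes the calls were 8480 and 8047 with median-ratio scaling and 8259 and 7823 with quantile normalization, against 8370 and 7923. Of all called genes 41.9% on 60% fat and 42.5% on 10% fat were higher in the main fit. That share was 49.9% and 49.7% with median-ratio scaling and 50.1% and 50.5% with quantile normalization. The excess of lower calls over all genes thus depends on the scaling. No count test could be run on RPKM, and genes near 1 RPKM such as Nlrc4, Tlr6, Tlr9 and Ticam2 rest on few reads. Nlrc4, Tlr6, Tlr9 and Ticam2 passed the filter only through room-air libraries, and such a filter favours calls of lower under oxygen. Nlrc3 would not have passed on room-air libraries alone, and for it the filter favours a call of higher. With no filter on low values, Nlrc4, Tlr9 and Ticam2 were still called lower and Nlrc3 higher in both diets. In that fit the calls of Nlrp3, Ripk2 and Nlrc5 were lost on 60% fat and those of Traf3ip3 and Nfkbid on 10% fat.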
